A study of Mus musculus with 16 samples.

Results

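The early response to doxycycline (DOX) was taken as the comparison of 4 libraries of mIMCD3 cells given 2 µg/mL DOX for 3 days with 4 libraries given the vehicle DMSO for 3 days, which are 8 of the 16 libraries of the study. Genes with at least 1 CPM (counts scaled to the total of the library) in at least 4 of the 16 libraries were tested, which kept 13234 of the 54393 genes of the count table. The cells of every group were wild type by genotype, and all had grown on permeable filters for 10 days before treatment. Both groups were kept in the same serum-containing medium, which held hydrocortisone, EGF, insulin, gentamicin and amphotericin B and was renewed daily with fresh DOX or DMSO. mIMCD3 is a single line, taken from inner medullary collecting duct of mice with an SV40 T antigen transgene, so the 4 replicates of a group are cultures of 1 line, and p-values measure the spread between these cultures.

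Doxycycline is a tetracycline antibiotic that binds bacterial ribosomes, and it also slows protein synthesis on the related ribosomes of mitochondria, which make a small set of respiratory chain subunits from mitochondrial DNA. Cells that lose mitochondrial protein synthesis are known to start the integrated stress response, in which phosphorylation of eIF2α favours translation of the transcription factor ATF4 and ATF4 raises genes of amino acid synthesis, amino acid uptake and tRNA charging. Collecting duct cells form a tight epithelium whose identity rests on junctions, keratins, ion transporters and lineage transcription factors.

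The total of estimated counts per library ran from 16933343 to 23960860, at which 3 counts correspond to between 0.125 and 0.177 CPM. DOX replicate 1 stood apart from the other DOX libraries. Its TMM scaling factor was 1.002, against 0.950 to 0.955 in DOX replicates 2 to 4, and it lay at -20.2 on the principal component that held 15.9% of the variance of the 8 libraries, where the other DOX libraries lay between -2.8 and 12.3. It was not the only library far out on that component, where DMSO replicate 1 lay at 22.1 and DMSO replicate 4 at -15.6. The lowest correlation with a library of the same group was 0.9847 for DMSO replicate 1 and 0.9851 for DOX replicate 1. On the leading component, with 46% of the variance, all 4 DOX libraries lay between 15.3 and 26.4 and all 4 DMSO libraries between -27.3 and -17.8. Counts that moved by more than 1.5 times without DOX replicate 1 are therefore given both ways.

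The fold changes of this comparison followed transcript length. The length of a gene was taken as that of its longest annotated transcript. Among the 10% of genes with the shortest transcripts (57 to 1256 bases) the median log2 fold change, DOX over DMSO, was 0.21 and 7.55% of genes were called higher against 2.95% called lower. In the 10% with the longest transcripts (6649 to 123179 bases) the median was -0.18, with 1.36% called higher and 11.7% called lower. Between these ends the medians fell at every step. Across the 13234 genes Spearman's rho between transcript length and log2 fold change was -0.33, and with the effective length implied by counts and TPM it was -0.42, a description over genes that share the same libraries. Within 5 equal groups of genes ordered by genomic span rho for transcript length ran from -0.32 to -0.25, whereas rho for span within 5 groups ordered by transcript length ran from -0.12 to 0.08.

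A length slope was then fitted in each library, as the change in log2 CPM relative to the average of the 8 libraries per doubling of transcript length. The slopes were 0.0301, 0.0264, 0.0525 and 0.0775 in DMSO replicates 1 to 4. They were 0.0422, -0.0803, -0.0633 and -0.0851 in DOX replicates 1 to 4, so that 3 DOX libraries lay below every DMSO library and DOX replicate 1 lay among the DMSO libraries. The mean slope was -0.0466 ± 0.06 (SD, n = 4) with DOX and 0.0466 ± 0.0236 with DMSO, a difference of -0.0932 (exact two-sided permutation test over 70 arrangements, p = 0.0857, where the smallest possible p is 0.0286). Without DOX replicate 1 the difference was -0.123 and the groups did not overlap (exact p = 0.0286, the smallest that 35 arrangements allow). As it was the only DOX library among the DMSO slopes, leaving it out fixed this p in advance, and nothing is concluded from it. At 6 days the difference was 0.0126 (exact p = 0.686), and the differences at the 2 times differed by -0.106 (exact permutation of the time labels over 4900 arrangements, p = 0.031). What lies behind the slope was not tested. A correction that removes a smooth trend with transcript length and GC content from each library left medians of 0.07 in the 10% of genes with the shortest transcripts and -0.01 in the 10% with the longest, and calls are given below with and without it.

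**Figure D1:**
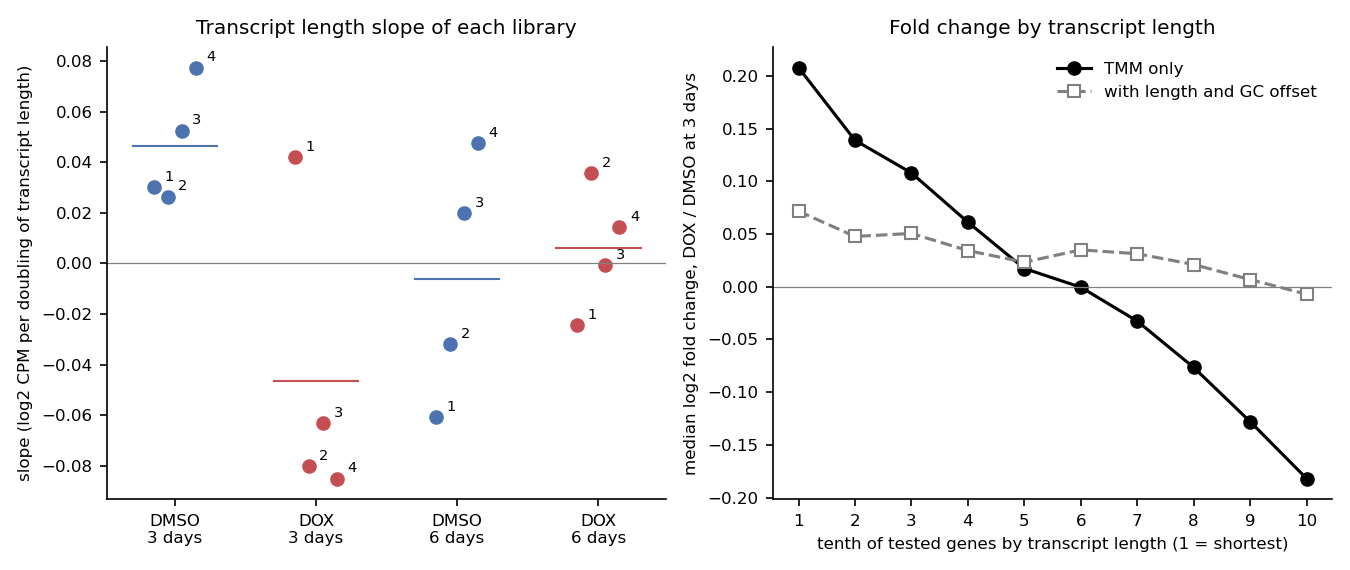
Left, the transcript length slope of each library (log2 CPM per doubling of transcript length), with replicate numbers beside the points and group means as lines: DOX replicates 2 to 4 at 3 days lie between -0.0851 and -0.0633, and DOX replicate 1 lies at 0.0422 among the DMSO libraries. Right, the median log2 fold change at 3 days in 10 equal groups of genes by transcript length, which falls from 0.21 to -0.18 with TMM scaling alone (filled circles) and from 0.07 to -0.01 with the length and GC offset (open squares).

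At a fold-change threshold of 1.2 and an adjusted p under 0.05, 1658 genes (12.5% of those tested) were called, 702 higher (5.3%) and 956 lower (7.22%) with DOX. The median size of a called change was 0.60 on the log2 scale, and 292 of the 1658 changed by at least 1. In 1634 of them, or 98.6%, the 4 DOX libraries did not overlap the 4 DMSO libraries, against 38.6% of all tested genes (18.8% higher and 19.8% lower). Without the fold-change threshold 5982 genes (45.2%) passed. On a log2(TPM + 1) scale, whose median fold change over all genes was -0.149, 85 genes were called higher and 616 lower by limma, and 304 and 270 after each library was centred on its median. With the length and GC correction 757 genes (5.72%) were called higher and 770 (5.82%) lower. Without DOX replicate 1 1079 genes (8.15%) were called higher and 1216 (9.19%) lower. In the same direction in all 3 fits, 1210 genes (9.14%) were called, 555 higher (4.19%) and 655 lower (4.95%). For brevity these are described below as kept in all 3 fits. Of the 1658 calls, 1592 were shared with the fit without DOX replicate 1 and 1259 with the fit with the length and GC correction. All 220 named genes called kept their call without DOX replicate 1. Being kept in all 3 fits therefore rests mostly on the length and GC correction. All 3 fits are edgeR fits of counts. Of 220 named genes called, 193 kept their call with DESeq2. With limma on log2(TPM + 1) 136 kept it, and 144 after each library was centred on its median. The genes called higher had a median transcript length of 2422 bases and those called lower of 4097 bases, and among the genes kept in all 3 fits these medians were 2793 and 3586 bases.

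**Figure D2:**
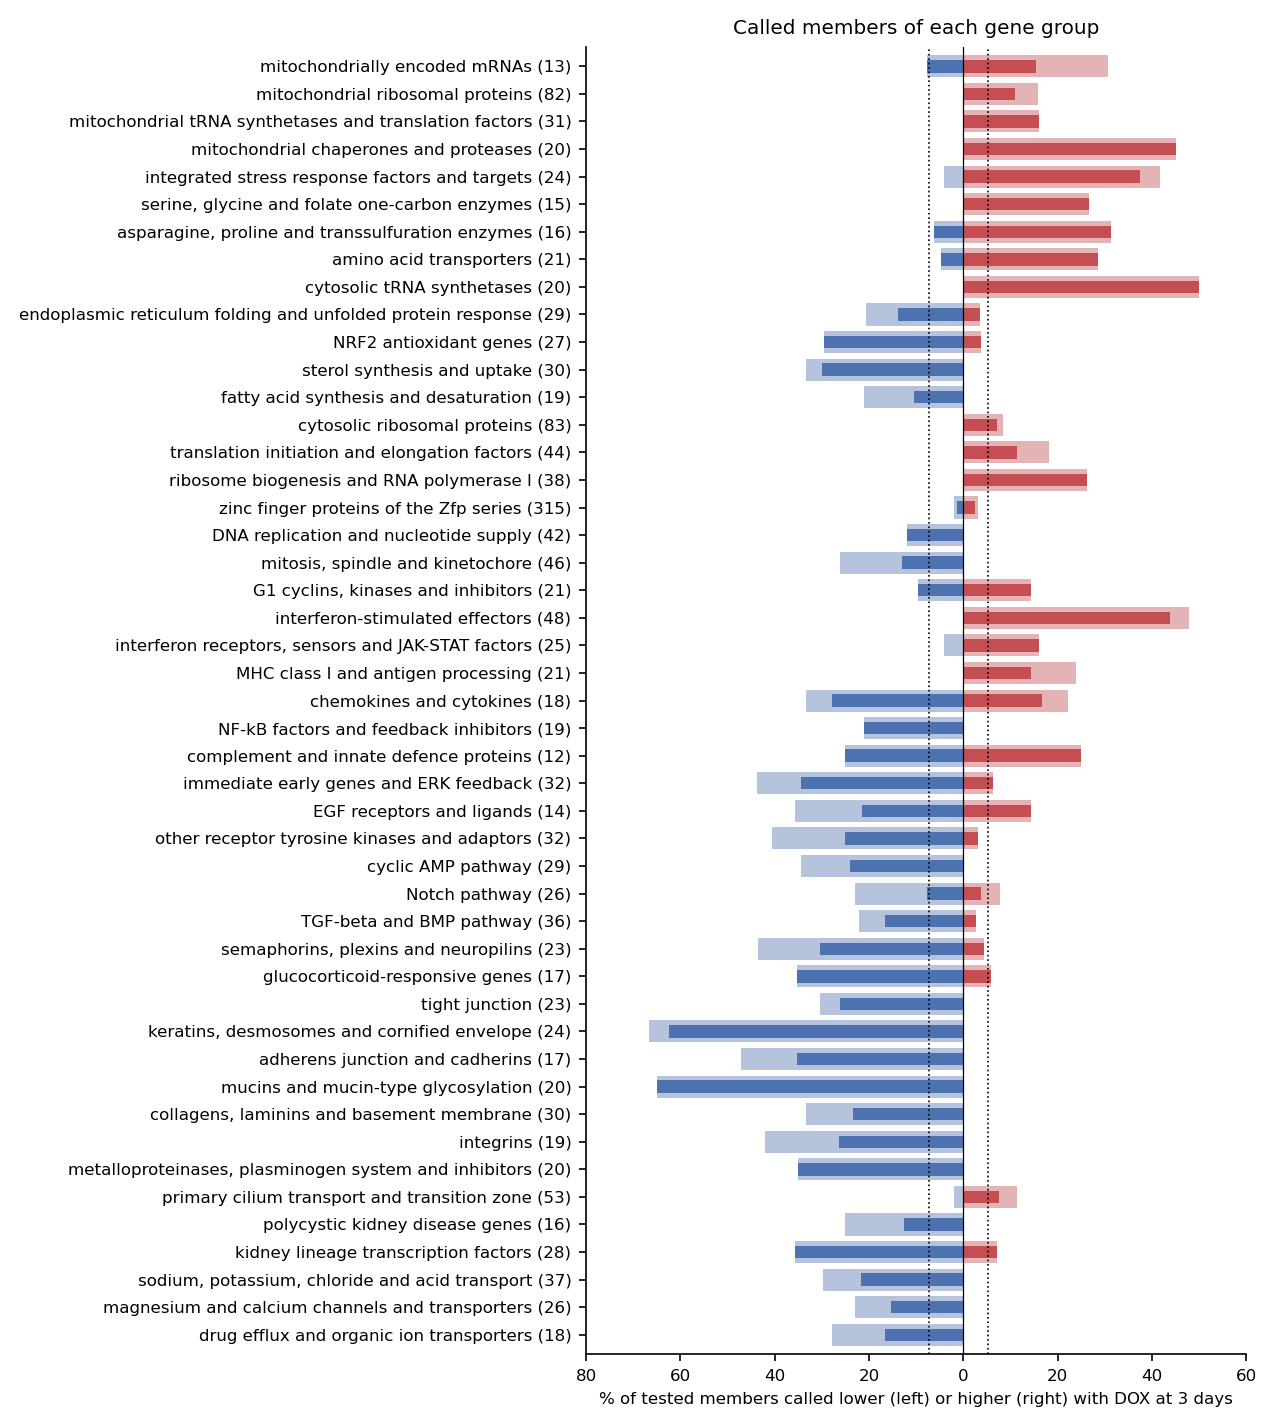
Share of the tested members of each gene group that was called lower (left, blue) or higher (right, red) with DOX at 3 days, for groups with at least 10 tested and 4 called members (tested members in brackets). Pale bars show all calls, dark bars the calls kept in all 3 fits, and dotted lines the shares over all tested genes (5.3% higher, 7.22% lower). Amino acid, tRNA charging, mitochondrial chaperone and interferon groups extend to the right, and junction, keratin, mucin, matrix and receptor groups to the left.

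The 12 largest rises among protein-coding genes outside those the paper discusses were led by *Avil*, which encodes the actin-binding protein advillin. *Avil* read 0.857, 0.543, 0.572 and 0.565 CPM in the DMSO libraries and 5.46, 6.23, 5.10 and 7.92 CPM with DOX, a log2 fold change of 3.30 ± 0.20 (SE, adjusted p = 2.52e-10). It overlaps *Tsfm* on the opposite strand, which also rose. *Cdsn*, the gene of the adhesion protein corneodesmosin, was the most abundant of the leading rises. Its libraries read 10.7, 15.9, 14.2 and 14.1 CPM with DMSO and 72.4, 71.1, 66.4 and 77.1 CPM with DOX (log2 fold change 2.38 ± 0.10, adjusted p = 1.06e-12), so the groups stood far apart. *B4galnt2*, a glycosyltransferase of the Sda antigen, rose by 2.43 ± 0.16 on the log2 scale, and *Acox2*, a peroxisomal oxidase of branched fatty acids and bile acid intermediates, by 2.00 ± 0.15. *Bend6*, *Hhipl1*, *Pdzd7*, *Akna*, *Cox6a2* (an isoform of a cytochrome c oxidase subunit best known from muscle), *Fam171b*, *Ltbp4* and *mt-Nd3* completed the list with log2 fold changes from 1.49 to 2.28.

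The 12 largest falls began with *Gm21293*, a gene model that shares its locus with *Gm6763* so that their reads are not cleanly assigned. It was followed by *Vcam1*, which encodes an adhesion molecule for leukocytes. *Vcam1* read 14.0, 9.61, 12.6 and 11.9 CPM with DMSO and 2.30, 2.04, 2.39 and 2.29 CPM with DOX, a log2 fold change of -2.40 ± 0.20 (adjusted p = 8.42e-08). The claudin genes *Cldn8* and *Cldn2* came next and are described with the tight junction. 3 of the falls were enzymes that act on small amines, hormones or drugs, namely *Aoc1*, the diamine oxidase that degrades histamine (-1.93 ± 0.16), *Inmt*, an amine N-methyltransferase (-1.92 ± 0.29), and *Sult1d1*, a sulfotransferase (-1.80 ± 0.12). *Sult1d1* was the most abundant of the 12, with 93.1 to 110 CPM in the DMSO libraries and 25.9 to 32.3 CPM with DOX. *Psca*, *Gsdma*, *Igfbp4* (a binding protein for insulin-like growth factors), *Krt4* and *Veph1* fell by between 1.69 and 1.9 on the log2 scale. All 24 genes were kept in all 3 fits, and all 24 were called in the same direction at 6 days.

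**Figure D3:**
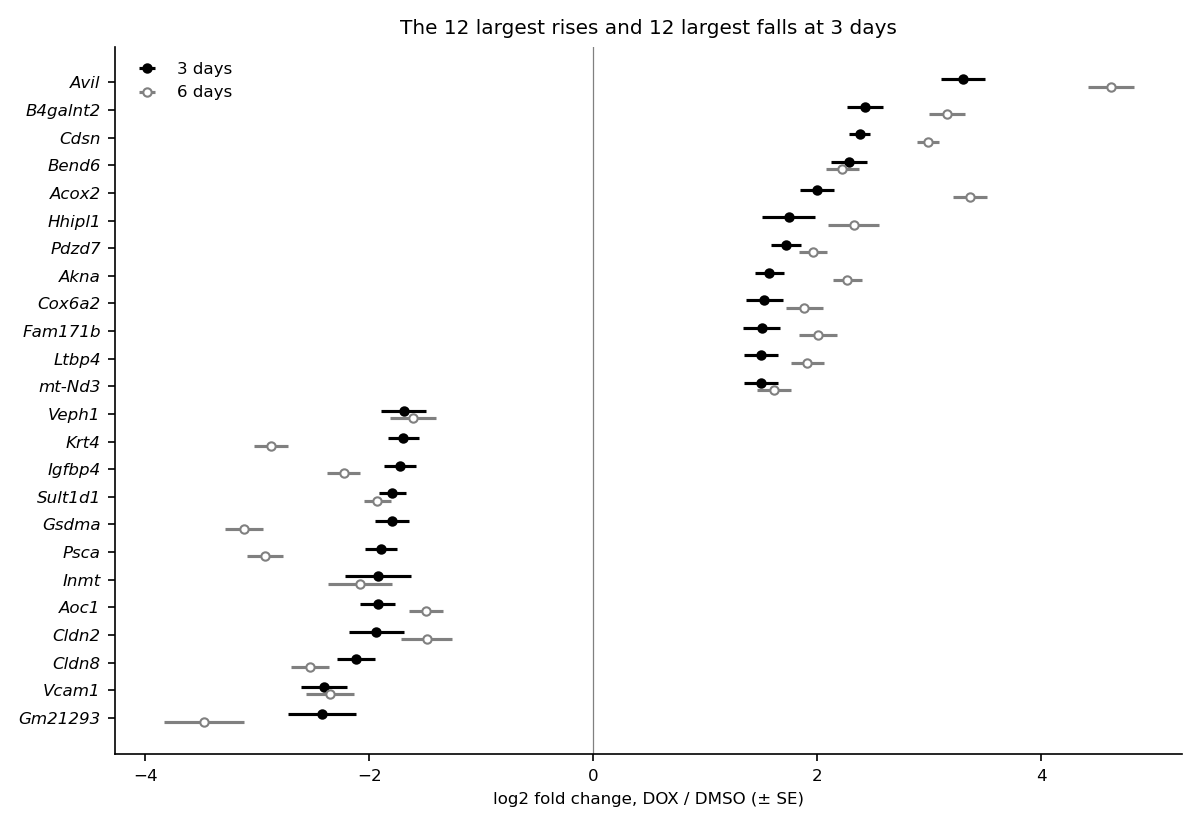
Log2 fold change, DOX over DMSO, with its SE for the 12 genes that rose most and the 12 that fell most by 3 days (filled circles, n = 4 against 4 libraries) and for the same genes at 6 days (open circles). *Avil* lies at 3.30 at 3 days and 4.62 at 6 days, and all 24 genes lie on the same side of 0 at both times.

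The 13 mRNAs encoded by mitochondrial DNA did not move together. *mt-Nd2* and *mt-Nd3*, both subunits of complex I, rose, and *mt-Co1*, the catalytic subunit of complex IV, fell. *mt-Nd2* read 669, 644, 628 and 628 CPM with DMSO and 1925, 1684, 1823 and 1748 CPM with DOX (log2 fold change 1.48 ± 0.10, adjusted p = 2.71e-09), a rise of nearly the same size in all 4 DOX libraries. *mt-Co1* read between 6845 and 7142 CPM with DMSO and between 4424 and 5198 CPM with DOX (-0.57 ± 0.09, adjusted p = 0.00315). *mt-Nd4* (0.63 ± 0.11) and *mt-Nd4l* (0.77 ± 0.10) were also called higher but not with the length and GC correction. The median of the 13 was 0.30, and 0.09 after that correction. The libraries were made from polyadenylated RNA, and a change in the tails of mitochondrial transcripts cannot be told apart here from a change in their amount.

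Of 20 nuclear genes for mitochondrial protein quality control 9 rose, against 5.3% of all genes, with no member called lower and all 9 kept in all 3 fits. With limma on log2(TPM + 1) none of the 20 was called higher, against 85 of 13180 genes in all. *Hspa9*, the main chaperone of the mitochondrial matrix, read 773, 801, 810 and 797 CPM with DMSO and 1328, 1271, 1238 and 1220 CPM with DOX (0.67 ± 0.06, adjusted p = 3.8e-06). *Lonp1*, the matrix protease, rose by 0.54 ± 0.05, *Trap1*, an HSP90 of the matrix, by 0.49 ± 0.05 and *Dnaja3*, a co-chaperone of *Hspa9*, by 0.47 ± 0.05. Of 31 genes of mitochondrial tRNA charging and translation 5 rose and none fell, all 5 in all 3 fits, among them *Mtrf1*, *Mrrf* and *Tsfm*, which release, recycle and feed the mitochondrial ribosome, and the tryptophan tRNA synthetase *Wars2* (0.50 to 0.69). Of the 82 genes for proteins of the mitochondrial ribosome itself 13 were called higher and none lower, led by *Mrps28* (0.53 ± 0.09). This count lay between 3 and 31 when each library was left out in turn, lowest without DOX replicate 4 and highest without DOX replicate 1. In all 3 fits 9 were kept, and 80 of the 82 lay above 0 with a median of 0.31. Nuclear genes of the respiratory chain and ATP synthase gave no call among 76 (median 0.22), and the enzymes of the tricarboxylic acid cycle none among 23 (median 0.13, and -0.06 on the log2(TPM + 1) scale). Without DOX replicate 1, 9 of the 76 and 2 of the 23 were called higher.

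Of 24 factors and targets of the integrated stress response 10 rose, against 5.3% of all genes, with 9 of them kept in all 3 fits. *Ppp1r15a*, which encodes the subunit that directs a phosphatase back to eIF2α, read 95.5, 98.7, 100 and 97.1 CPM with DMSO and 208, 219, 210 and 223 CPM with DOX (log2 fold change 1.14 ± 0.05, adjusted p = 6.02e-11). *Trib3*, a pseudokinase that feeds back on ATF4, went from 80.3, 98.0, 103 and 102 CPM to 200, 210, 190 and 217 CPM (1.09 ± 0.08). *Ddit3*, the transcription factor CHOP, rose by 0.90 ± 0.08 and *Gpt2*, a mitochondrial alanine transaminase, by 0.87 ± 0.06. The groups did not overlap for any of these 4 genes, and DOX replicate 1 was the lowest DOX library for *Ddit3* (308 CPM against 356 to 370 CPM). *Atf4* itself, named although it falls outside the rule for named genes, went from between 584 and 611 CPM to between 802 and 969 CPM (0.60 ± 0.06, adjusted p = 8.56e-05). *Eif2ak3*, the endoplasmic reticulum kinase of eIF2α, was the only member called lower (-0.51 ± 0.09). With the length and GC correction its log2 fold change was -0.42 (adjusted p = 0.0713), and without DOX replicate 1 2 members were called lower. *Ddit3* overlaps *Mars*, the gene of the methionine tRNA synthetase, on the opposite strand.

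Several enzymes that make amino acids rose as well. *Cth*, which forms cysteine by transsulfuration, read 24.4, 26, 26.2 and 23.9 CPM with DMSO and 59.9, 76.0, 68.9 and 78.0 CPM with DOX (1.49 ± 0.07, adjusted p = 6.02e-11). *Pycr1*, the last step of proline synthesis, went from between 9.55 and 11.1 CPM to between 21.9 and 23.5 CPM (1.13 ± 0.07), and *Aldh18a1*, an earlier step, rose by 0.75 ± 0.06. *Asns*, asparagine synthetase, read 198, 202, 198 and 194 CPM with DMSO and 318, 343, 326 and 343 CPM with DOX (0.75 ± 0.05). In the serine and folate pathway *Psph* (1.02 ± 0.08), *Mthfd2* (0.86 ± 0.05), *Shmt2* (0.70 ± 0.07) and *Phgdh* (0.60 ± 0.07) rose, enzymes that make serine from phosphoglycerate and pass its carbon to folates in mitochondria. These were the 4 members called among 15, and 5 rose among 16 enzymes of asparagine, proline and transsulfuration. *Glul*, glutamine synthetase, moved the other way, from between 13 and 15.9 CPM to between 6.43 and 7.54 CPM (-1.03 ± 0.10). Of 21 amino acid transporters 6 rose, led by *Slc7a11*, the cystine carrier (1.24 ± 0.10), *Slc6a9* for glycine (0.90 ± 0.09), *Slc1a5* for glutamine and other neutral amino acids (0.73 ± 0.08) and *Slc1a4* (0.70 ± 0.09), and the taurine carrier *Slc6a6* fell (-0.88 ± 0.07). All of these calls were kept in all 3 fits.

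10 of the 20 tested cytosolic tRNA synthetases rose and none fell, all 10 in all 3 fits, with all 20 above 0 and a median of 0.38. On the log2(TPM + 1) scale limma called 1 of them higher, and the median was 0.14. *Eprs*, which charges glutamate and proline tRNAs, went from 363, 396, 385 and 403 CPM to 656, 655, 622 and 648 CPM (0.74 ± 0.06, adjusted p = 3.59e-07). *Wars* (0.66 ± 0.06), *Lars* (0.63 ± 0.05) and *Iars* (0.55 ± 0.05) followed.

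The RefSeq promoters of these genes (GRCm38.p6, the 250 bases before the start site) were searched on both strands for the letters TGATGNAA, the core of the C/EBP-ATF element that ATF4 is known to bind. Of 29 genes called higher in the stress response, amino acid and tRNA synthetase groups that have a promoter in the table, 8 (27.6%) held a match, as did 5 of 43 (11.6%) uncalled members, 25 of all 539 genes called higher with a promoter (4.64%), 224 of 9807 tested genes (2.28%) and 1056 of 27025 genes in all (3.91%). Other motifs searched in the same promoters were the antioxidant element core TGACNNNGC, found in 10.3% of the 29 called and 16.3% of the 43 uncalled members, the cyclic AMP element TGACGTCA (3.45% and 0%) and the E-box CACGTG (17.2% and 14%). The stretches around the matches of *Asns*, *Pycr1*, *Slc7a11* and *Chac1* are shown, 5′ to 3′ along the gene, with the matching letters in capitals in either orientation. The windows are chr6:7693210-7693258 on the minus strand for *Asns*, chr11:120643818-120643877 on the minus strand for *Pycr1*, chr3:50443627-50443705 on the minus strand for *Slc7a11*, which has 2 matches, and chr2:119351023-119351082 on the plus strand for *Chac1*, a glutathione-degrading target of the pathway (0.62 ± 0.07) shown for its match.
Asns: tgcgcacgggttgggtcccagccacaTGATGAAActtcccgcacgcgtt
Pycr1: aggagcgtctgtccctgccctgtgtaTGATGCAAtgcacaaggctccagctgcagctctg
Slc7a11: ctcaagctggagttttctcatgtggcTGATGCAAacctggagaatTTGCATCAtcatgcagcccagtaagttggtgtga
Chac1: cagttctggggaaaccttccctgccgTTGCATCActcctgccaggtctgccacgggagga
A match in letters is a description of the sequence and does not show binding.

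**Figure D4:**
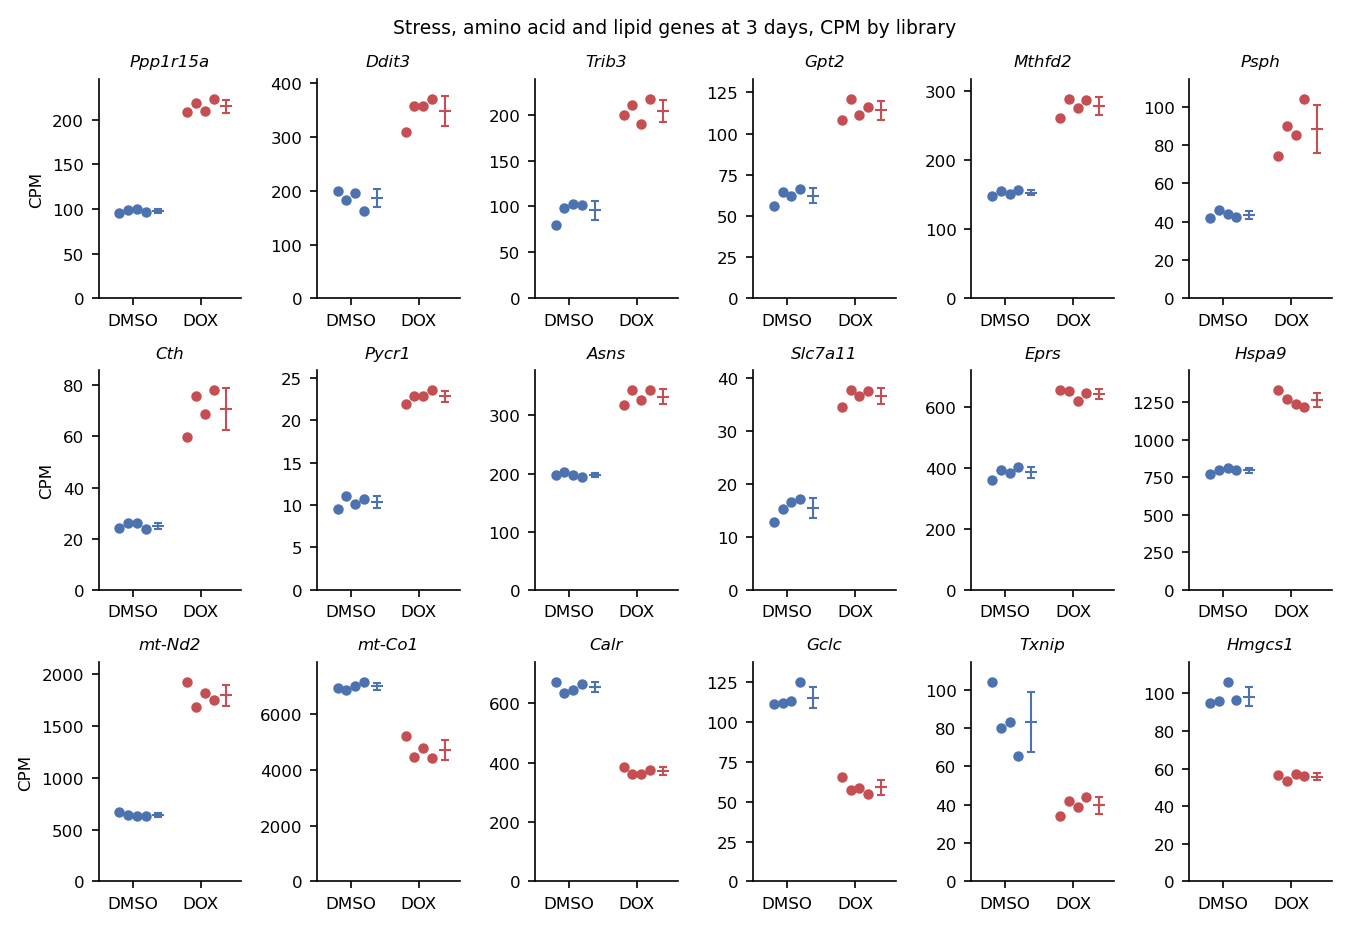
CPM of 18 genes of stress, amino acid, mitochondrial and lipid groups in each of the 4 DMSO (blue) and 4 DOX (red) libraries of 3 days in replicate order, with the mean and SD beside the points and every axis starting at 0. The groups do not overlap for any of the 18 genes, for example 23.9 to 26.2 CPM with DMSO against 59.9 to 78.0 CPM with DOX for *Cth*.

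Of 38 genes of ribosome biogenesis and RNA polymerase I 10 rose, all kept in all 3 fits, with all 38 above 0, and the leading members were *Rrp9* (0.68 ± 0.07), *Mrto4* (0.62 ± 0.07), *Gnl3* (0.57 ± 0.06) and the polymerase subunit *Polr1c* (0.55 ± 0.08). Of 44 initiation and elongation factors 8 rose, against 5.3% of all genes, and 5 of them were kept in all 3 fits. Without DOX replicate 1 14 rose, against 8.15% of all genes in that fit. The 8 included *Eif2b3*, a subunit of the exchange factor for eIF2 (0.54 ± 0.07), and *Eif3c* (0.51 ± 0.05). Among 83 proteins of the cytosolic ribosome all lay above 0, with a median of 0.36 that became 0.25 with the length and GC correction. 7 of them were called higher, against 5.3% of all genes, and 6 were kept in all 3 fits. The count lay between 1 (without DMSO replicate 4) and 38 (without DOX replicate 1), with 31 without DMSO replicate 1, when each library was left out in turn. *Rpl12* read 238, 236, 201 and 188 CPM in DMSO and 304, 379, 351 and 351 CPM in DOX replicates 1 to 4 (0.68 ± 0.09), with DOX replicate 1 lowest among the DOX libraries. Ribosomal protein genes have many processed pseudogenes, and reads shared with them are uncertain. *Gas5*, a noncoding host of small nucleolar RNAs, rose by 0.64 ± 0.09. The 41 spliceosome genes gave no call in either direction (median 0.08), and 1 was called higher without DOX replicate 1.

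Chaperones of the endoplasmic reticulum are known to rise in the unfolded protein response of that compartment. Of 29 genes of folding and of this response 6 fell, against 7.22% of all genes, and 1 rose. In all 3 fits 4 falls and 1 rise were kept, and 3 fell without DMSO replicate 3 or without DOX replicate 2. *Calr*, the calcium-binding chaperone calreticulin, read 672, 634, 646 and 666 CPM with DMSO and 387, 362, 361 and 376 CPM with DOX (log2 fold change -0.82 ± 0.05, adjusted p = 1.92e-08). *Hsp90b1* (-0.64 ± 0.06) and *Pdia6* (-0.48 ± 0.05) also fell, while *Atf6*, a sensor of this response, rose (0.45 ± 0.06). In the cytosol *Hspa1b*, *Hspa1a* and *Cryab* fell among 19 heat shock genes (-0.79 to -0.48), and reads of *Hspa1a* and *Hspa1b* are shared because the genes are nearly identical.

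8 of 27 antioxidant genes of the NRF2 pathway fell, against 7.22% of all genes, and 1 rose, against 5.3%. These calls were all kept in all 3 fits. *Gclc*, the catalytic subunit of the first step of glutathione synthesis, read 111, 112, 113 and 125 CPM with DMSO and 65.3, 57.1, 58.5 and 54.7 CPM with DOX (-0.97 ± 0.07, adjusted p = 5.05e-08). *Gsta1* (-1.26 ± 0.15), *Srxn1* (-0.80 ± 0.06) and *Osgin1* (-0.70 ± 0.08) followed, and the member that rose was *Slc7a11*, which is also a target of ATF4. Of 7 genes around the glucose sensor MondoA, 3 fell. *Txnip*, which binds thioredoxin and limits glucose uptake, went from 104, 80.0, 82.9 and 65.6 CPM to 34.1, 41.8, 38.6 and 44.0 CPM (-1.06 ± 0.18), *Arrdc3* fell by 0.61 on the log2 scale, and the scarce *Mlxipl* went from 1.27 to 0.572 CPM on average (-1.13 on the log2 scale). Values for *Arrdc4* (-0.15 ± 0.17), *Klf10* (-0.31 ± 0.06), *Mlxip* (-0.21 ± 0.07) and *Mlx* (0.28 ± 0.06) did not pass the test. Among 29 glycolysis and hypoxia genes 3 were called lower, against 7.22% of all genes, and 6 without DOX replicate 1, against 9.19% in that fit. Of the 3, *Egln3*, an oxygen-sensing hydroxylase, was kept in all 3 fits (-0.79 ± 0.08).

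Of 30 genes of sterol synthesis and uptake 10 fell, against 7.22% of all genes, and none rose. 9 of the falls were kept in all 3 fits, and 25 of the 30 lay below 0. *Hmgcs1*, an early enzyme of cholesterol synthesis, read 94.7, 95.8, 106 and 96.5 CPM with DMSO and 56.3, 53.2, 57.3 and 56.2 CPM with DOX (-0.82 ± 0.08, adjusted p = 8.9e-06), so the groups did not overlap. *Stard4*, a sterol carrier, fell by 0.73 on the log2 scale. Of 19 genes of fatty acid synthesis and desaturation 4 fell, and the desaturase *Scd2* (-0.74 ± 0.08) and *Dgat2*, which makes triglycerides (-0.57 ± 0.11), were kept in all 3 fits, while *Fasn* (-0.72 ± 0.08) and *Elovl6* (-0.61 ± 0.13) were not. Fatty acid oxidation gave 1 call among 25, *Ppargc1a*, a coactivator of mitochondrial biogenesis (-0.63 ± 0.13). Without DOX replicate 1 it gave 2 rises and 2 falls. Of 20 genes of metal handling none was called, 1 was called lower without DOX replicate 1, and 2 were with limma on log2(TPM + 1). The groups did not overlap for 8 that were lower and 1 that was higher, against 19.8% and 18.8% of all genes.

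Of 42 genes of DNA replication 5 fell, all in all 3 fits, against 7.22% of all genes called lower, among them *Rrm2*, a subunit of ribonucleotide reductase, which went from 150, 138, 143 and 146 CPM to 70.1, 80.1, 73.3 and 90.8 CPM (log2 fold change -0.88 ± 0.07, adjusted p = 3.97e-07). The repressors *E2f7* (-0.90 ± 0.09) and *E2f8* (-0.62 ± 0.06) and the checkpoint adaptor *Clspn* (-0.59 ± 0.06) fell as well, while the median of the 42 was -0.04. Of 46 mitosis genes 12 fell, 6 of them in all 3 fits, led by *Mki67*, the Ki-67 antigen of cycling cells (-0.82 ± 0.08), and at 6 days 42 of the 46 were called lower. Among 21 cyclins, kinases and inhibitors of G1 phase, *Cdkn1c*, the inhibitor p57 (0.60 ± 0.10), *Myc* (0.43 ± 0.05) and *Ccnd2* rose, and *Mycn* (-1.02 ± 0.15) and the inhibitor *Cdkn2c* (-0.71 ± 0.07) fell. *Ccnd2* was barely expressed, at 0.172 to 0.674 CPM with DMSO and 0.751 to 1.30 CPM with DOX. Of 25 targets of p53, *Gadd45a* (0.46 ± 0.06) and *Ddb2* (0.41 ± 0.06) were called higher, but not with the length and GC correction, and the antiproliferative gene *Btg2* fell (-0.47 ± 0.06), with 2 members called lower without DOX replicate 1. In the BCL2 family of cell death regulators the BH3-only gene *Hrk* rose from an average of 0.471 to 1.31 CPM and the BH3-only gene *Bmf* fell from 7.20 to 3.78 CPM, among 15 members tested, of which 2 rose without DOX replicate 1. With all libraries the counts of p53 targets and of the BCL2 family lay near the shares over all genes (5.3% higher, 7.22% lower).

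Interferon-stimulated genes, which block viruses and are read out through the factor ISGF3, were called higher in many cases. Of 48 effectors 23 rose and none fell, 21 in all 3 fits and 22 without DOX replicate 1, against 5.3% of all genes called higher. Limma on log2(TPM + 1) called 3 of the 48 higher. *Isg15*, a ubiquitin-like modifier, read 105, 118, 108 and 101 CPM with DMSO and 174, 201, 198 and 205 CPM with DOX (0.85 ± 0.10, adjusted p = 2.61e-05). *Usp18*, which removes ISG15, rose by 0.71 ± 0.06, *Ifi44* by 0.71 ± 0.07 and *Xaf1* by 0.67 ± 0.07. Of 25 factors that carry the signal 4 rose, among them *Irf7* (0.56 ± 0.07), *Irf9* (0.49 ± 0.05) and the receptor chain *Ifnar2* (0.41 ± 0.06), while *Ikbke* was called lower (-0.42 ± 0.06) but not in all 3 fits. In antigen processing 5 of 21 members rose, 3 in all 3 fits, among them the peptide transporter *Tap1* (0.47 ± 0.07) and the immunoproteasome subunit *Psmb9* (0.50 ± 0.08), which overlap on opposite strands, and *Cd74*, the invariant chain of class II, from 2.06 to 2.82 CPM to 4.53 to 5.63 CPM (1.1 ± 0.15). At 6 days 36 of the 48 effectors and 15 of the 21 antigen processing genes were called higher.

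Among other defence genes calls went both ways. Of 18 chemokines and cytokines 4 rose and 6 fell. The interferon-inducible chemokines *Ccl5* (0.85 ± 0.10), *Cxcl10* (0.69 ± 0.12) and *Cxcl11* (0.71 ± 0.18) rose, and the neutrophil chemokines *Ppbp*, *Cxcl5* (-1 ± 0.12) and *Cxcl1* (-0.62 ± 0.12) and the mucosal chemokine *Ccl28* (-1.51 ± 0.30) fell. *Cxcl10* and *Cxcl11* overlap *Art3* on the opposite strand. *Cxcl11* is annotated as a polymorphic pseudogene and was not called in an edgeR fit with the replicate number as a block (0.72, adjusted p = 0.0617). *Ppbp* was the most abundant of the 7 named chemokines, with 364, 341, 342 and 303 CPM in DMSO and 112, 139, 134 and 148 CPM in DOX (-1.34 ± 0.08, adjusted p = 7.61e-10). All 4 calls among 19 factors and targets of NF-κB were falls, which were *Vcam1*, *Nfkbie* (-0.75 ± 0.15), *Birc3* (-0.63 ± 0.10) and *Tnfaip3*, the feedback inhibitor A20 (-0.61 ± 0.06). Among 12 complement and innate proteins *C3*, the central complement component (-1.28 ± 0.20), *Pigr*, the antibody transporter (-1.58 ± 0.32), and the lipopolysaccharide co-receptor *Cd14* (-0.81 ± 0.09) fell. *Lcn2*, an iron-scavenging protein released by injured tubules, rose from between 486 and 564 CPM to between 697 and 844 CPM (0.56 ± 0.08), as did *Cd59a* (0.68 ± 0.11) and the scarce *C1ra*.

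Of 32 immediate early and ERK feedback genes 14 fell and 2 rose, 11 and 2 in all 3 fits. *Dusp1*, a phosphatase that switches off MAP kinases, read 35.3, 33.0, 38 and 36.8 CPM with DMSO and 19.9, 16.8, 18.8 and 19.4 CPM with DOX (-0.93 ± 0.08, adjusted p = 8.92e-07), *Dusp10* fell by 0.96 on the log2 scale and *Jun*, a subunit of AP-1, by 0.84. *Errfi1*, an inhibitor of the EGF receptor, went from 138, 121, 126 and 127 CPM to 73.8, 69.6, 72.3 and 69.1 CPM (-0.84 ± 0.06). *Etv5*, a transcription factor downstream of ERK, rose (0.93 ± 0.11). Of 14 EGF receptor family members, ligands and regulators *Erbb2* (-0.58 ± 0.08), *Erbb3* (-0.47 ± 0.07) and the inhibitor *Lrig1* (-0.58 ± 0.08) fell, whereas the ligands *Areg* and *Btc* (0.48 ± 0.10) rose. *Areg* read 5.33, 6.47, 5.61 and 4.82 CPM with DMSO and 7.66, 11.1, 11.8 and 15.2 CPM with DOX (1.03 ± 0.17), with DOX replicate 1 lowest. The call of *Erbb3* was lost with the length and GC correction.

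Among 32 other receptor tyrosine kinases, ligands and adaptors 13 fell, 8 of them in all 3 fits, including *Kitl*, the ligand of KIT (-1.16 ± 0.13), *Ephb2* (-0.83 ± 0.12), *Efnb2* (-0.76 ± 0.08) and the hepatocyte growth factor receptor *Met* (-0.69 ± 0.09). *Ddr2*, a collagen receptor, rose from 0.209 to 0.744 CPM to 2.00 to 3.71 CPM (2.66 ± 0.32). 10 of 29 genes of the cyclic AMP pathway fell, 7 in all 3 fits, with the anchoring protein *Akap12* going from an average of 1396 to 796 CPM (-0.81 ± 0.08), the phosphodiesterase *Pde4d* at -0.86 ± 0.18 and the prostaglandin E2 receptor *Ptger4* at -0.60 ± 0.10. 6 of 26 Notch genes were called lower, against 7.22% of all genes, and 3 without DMSO replicate 4 or without DOX replicate 3. Another 2 were called higher, 1 of them in all 3 fits. *Notch2* (-0.61 ± 0.09) and *Dll4* (-1.39 ± 0.31) were lower in all 3 fits, but *Dll4* was scarce, at 1.48 and 0.564 CPM on average, and lay at 0.0209 on the log2(TPM + 1) scale centred on each library's median. In the TGF-β and BMP pathway 8 of 36 fell and 1 rose, among them *Bmp3* (-1.39 ± 0.10), *Id4* (-1.15 ± 0.20), the receptor *Tgfbr2* (-0.73 ± 0.06) and *Smad3* (-0.64 ± 0.08), and *Bmp6* rose (0.69 ± 0.12). Of 23 semaphorins, plexins and neuropilins 10 fell, 7 in all 3 fits, led by *Plxna2* (-1.06 ± 0.10), *Nrp1* (-0.90 ± 0.08), *Sema3c* (-0.84 ± 0.07) and *Sema4b* (-0.69 ± 0.07), and *Sema3a* rose (0.95 ± 0.14). Of 27 Wnt genes 3 were called lower (*Fzd5*, *Fzd4* and *Fzd1*, -0.53 to -0.51), none of them with the length and GC correction, and 8 were called lower without DOX replicate 1, against 9.19% of all genes in that fit. Of 17 genes that respond to glucocorticoids, which were present in the medium of both groups, 6 fell and 1 rose, all in all 3 fits. Among the falls was *Sgk1*, a kinase that raises sodium transport (-0.91 ± 0.08).

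Among groups with at least 10 tested members, keratin and mucin genes gave the largest shares of falls. Of 24 keratin, desmosome and cornified envelope genes 16 fell and none rose, 15 in all 3 fits, with a median of -0.55, against 7.22% of all genes called lower. *Krt4*, a keratin of moist stratified epithelia, read 12.1, 12.4, 11.4 and 10.8 CPM with DMSO and 3.46, 3.69, 3.36 and 3.88 CPM with DOX (-1.70 ± 0.14, adjusted p = 3.96e-08). *Sprr1a*, a cornified envelope precursor, went from 216, 201, 196 and 173 CPM to 65.7, 73.9, 84.3 and 87.8 CPM (-1.33 ± 0.09), *Krt20* fell by 0.82 on the log2 scale and *Sfn*, the epithelial 14-3-3 protein, by 0.69. *Cdsn*, the largest abundant rise of the comparison, is also a cornified layer protein but was not in this list.

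Mucins and the enzymes that glycosylate them fell in 13 of 20 cases, all in all 3 fits, with a median of -0.68 and 1 member above 0. *Muc20* read 49.4, 47.2, 51.0 and 54.5 CPM with DMSO and 19.4, 13, 17.8 and 18.3 CPM with DOX (-1.56 ± 0.11, adjusted p = 1.24e-08), and it overlaps *Muc4* on the opposite strand. *Muc1*, the membrane mucin of ductal epithelia, went from between 13.7 and 15.5 CPM to between 4.56 and 6.99 CPM (-1.39 ± 0.15). The sialyltransferases *St3gal1* (-1.21 ± 0.07) and *St6gal1* (-0.82 ± 0.07) fell with them.

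Of 23 tight junction genes 7 fell, 6 in all 3 fits. *Cldn8*, a claudin of the collecting duct that restricts cations, read 8.63, 8.23, 10.8 and 8.99 CPM with DMSO and 2.5, 1.54, 2.06 and 2.29 CPM with DOX (-2.12 ± 0.17, adjusted p = 1.85e-08). *Cldn2*, a claudin that lets cations pass, went from 6.68, 5.68, 7.50 and 7.08 CPM to 1.70, 1.54, 1.08 and 2.68 CPM (-1.94 ± 0.25). The junction plaque proteins *Cgnl1* (-0.66 ± 0.06) and *Cgn* (-0.56 ± 0.06) fell less. Of 17 genes of adherens junctions 8 fell, 6 in all 3 fits, among them kidney cadherin *Cdh16* (-0.83 ± 0.08), *Cdh17* (-0.70 ± 0.09) and vinculin, *Vcl* (-0.64 ± 0.09). On the basal side 10 of 30 matrix genes fell, 7 in all 3 fits and 16 without DOX replicate 1, including *Thbs1* (-1.01 ± 0.14), *Npnt*, the ligand of the integrin that guides ureteric bud growth (-0.85 ± 0.09), and dystroglycan, *Dag1* (-0.77 ± 0.08). 8 of 19 integrin genes fell, 5 in all 3 fits, led by *Itga1* (-1.33 ± 0.12). Of 20 proteases and inhibitors that act on the matrix 7 fell, all in all 3 fits. *Plat*, tissue plasminogen activator, read 279, 248, 248 and 244 CPM with DMSO and 123, 104, 114 and 107 CPM with DOX (-1.18 ± 0.07, adjusted p = 7.61e-10), and *Plau* (-0.77 ± 0.06) and *Mmp7* (-1.40 ± 0.17) fell as well.

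**Figure D5:**
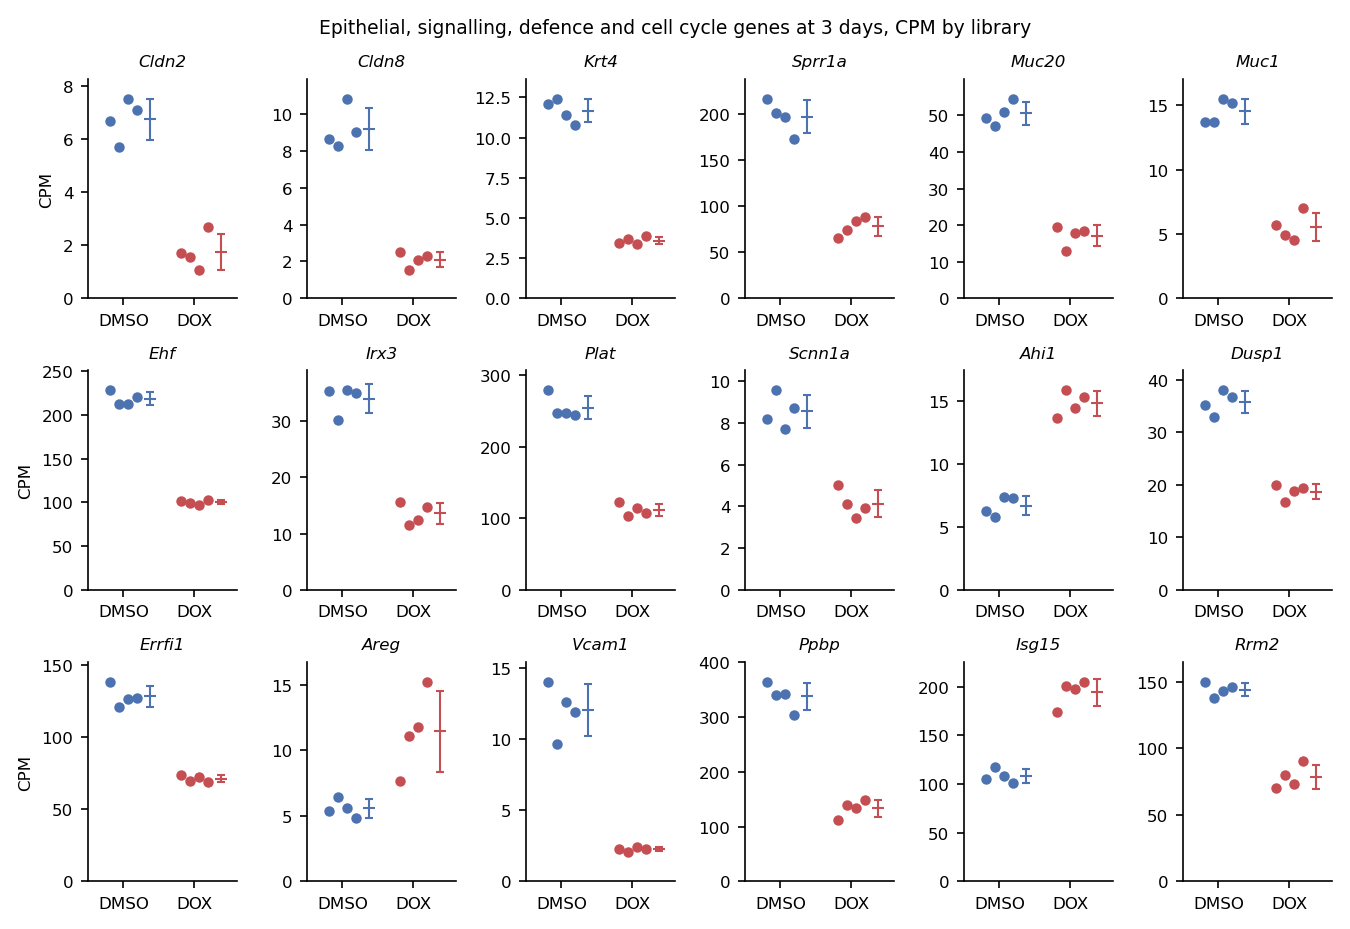
CPM of 18 genes of epithelial structure, transcription, transport, signalling, defence and the cell cycle in each of the 4 DMSO (blue) and 4 DOX (red) libraries of 3 days in replicate order, with the mean and SD beside the points and every axis starting at 0. The groups do not overlap for any of them, and *Ahi1*, *Areg* and *Isg15* are the 3 that were higher with DOX.

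Kidney lineage transcription factors changed in 12 of 28 cases, 10 falls and 2 rises, all kept in all 3 fits. *Ehf*, an epithelial ETS factor, read 228, 213, 212 and 220 CPM with DMSO and 102, 99.4, 97.6 and 103 CPM with DOX (-1.12 ± 0.06, adjusted p = 6.95e-10), and its relative *Elf3* fell by 0.64 on the log2 scale. *Irx3*, a homeobox factor of the nephron, went from 35.3, 30.1, 35.4 and 35.0 CPM to 15.6, 11.6, 12.4 and 14.8 CPM (-1.32 ± 0.11), and *Sim1* fell from an average of 28.5 to 14.0 CPM (-1.02 ± 0.10). *Zeb2*, a repressor of epithelial genes, rose (0.61 ± 0.09), and *Klf15* rose from a low level (1.2 to 2.46 CPM on average). Of 24 Hox genes 2 were called lower, *Hoxb3* and *Hoxb5* (-0.56 ± 0.09 and -0.54 ± 0.12), a share near the 7.22% of all genes, and 1 was called higher without DOX replicate 1.

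Of 37 genes of sodium, potassium, chloride and acid transport 11 fell, against 7.22% of all genes, and none rose. 8 of the falls were kept in all 3 fits. *Scnn1a*, the α subunit of the epithelial sodium channel, read 8.21, 9.56, 7.73 and 8.73 CPM with DMSO and 5.01, 4.13, 3.47 and 3.93 CPM with DOX (-1.05 ± 0.12, adjusted p = 8.96e-06). *Atp1b1*, the β subunit of the sodium pump, fell from between 381 and 437 CPM to between 205 and 230 CPM (-0.87 ± 0.06), and the kinase *Wnk4* by 0.85 on the log2 scale. Among 26 magnesium and calcium channels and carriers 6 fell, 4 in all 3 fits, led by the mechanosensitive channel *Piezo2* (-0.94 ± 0.11), *Trpa1* (-0.84 ± 0.14), *Slc41a2* (-0.84 ± 0.21) and *Magt1* (-0.61 ± 0.08). Of 18 drug transporters 5 fell, among them *Slco4a1* (-1.36 ± 0.08) and the efflux pump *Abcc3* (-0.71 ± 0.07). Water and osmolyte genes other than *Slc6a6* were either uncalled, as *Slc5a3* (-0.58 ± 0.16), *Nfat5* (-0.39 ± 0.09), *Hspa4l* (-0.38 ± 0.06), *Akr1b3* (0.03 ± 0.07) and *Aqp11* (0.44 ± 0.28), or not kept in all 3 fits, as *Aqp1* (-1.19 ± 0.33). Of these 7 genes 2 were called lower, and 4 without DOX replicate 1.

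The primary cilium is the sensory organelle of tubule cells. Of its 53 transport and transition zone genes 6 rose, against 5.3% of all genes, and 1 fell, with 4 rises kept in all 3 fits, and the median was 0.15 (-0.04 on the log2(TPM + 1) scale). *Ahi1*, a transition zone protein, read 6.25, 5.81, 7.38 and 7.30 CPM with DMSO and 13.6, 15.8, 14.4 and 15.3 CPM with DOX (1.15 ± 0.10, adjusted p = 2.96e-07). The dynein subunit *Wdr34* (0.61 ± 0.08) and *Ift172* (0.59 ± 0.07) rose as well. Of 16 genes linked to polycystic kidney disease 4 were called lower, against 7.22% of all genes, with 2 of them kept in all 3 fits. *Cys1*, which encodes the ciliary protein cystin, fell from an average of 37.1 to 17.6 CPM (-1.07 ± 0.08).

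The identity of the line limits what the epithelial results describe. All 10 pan-epithelial markers were tested, with 5 called lower, among them *Krt8*, *Krt19*, *Cdh1* and *Cdh16*. Their summed level was 4010 to 4130 CPM with DMSO and 2980 to 3260 CPM with DOX. Summed levels here were scaled to library totals without TMM. Only 3 of 15 markers of principal and intercalated cells passed the filter, and of these *Gata3* (-0.74 ± 0.16) and *Slc26a4* (-1.01 ± 0.22) fell. *Aqp2*, the water channel that defines principal cells, had 0 to 6 counts per library. All 8 proximal tubule markers passed the filter, with summed levels of 23.7 to 134 CPM in DMSO and 22.9 to 40.4 CPM in DOX libraries. All 8 had log2 fold changes below 0, from -1.04 to -0.47 with a median of -0.88, and none passed the test. *Kap* was the most abundant, with 76.1 CPM in DMSO replicate 1 and 9.51 to 30.3 CPM in the other DMSO libraries, against 10.1 to 21.1 CPM with DOX. The libraries of *Inmt* and *Sult1d1*, which the proximal tubule of the kidney also expresses, ranged from 10.3 to 13.1 CPM and from 93.1 to 110 CPM with DMSO, both highest in DMSO replicate 1. Of 10 leukocyte markers *Csf1r* was the only one tested (-0.82 ± 0.17), *Tyrobp* had 0 counts in all 8 libraries, and none of 10 fibroblast markers passed the filter. Whether kidney RNA from outside these cultures has a part in any result was not tested.

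Of 315 zinc finger genes of the Zfp series 10 rose and 6 fell, below the share over all genes in both directions, and 17 rose without DOX replicate 1. Of 63 chromatin regulators 3 were called lower, of which *Chd9* (-0.68 ± 0.06) was kept in all 3 fits. Without DOX replicate 1 12 of the 63 were called lower, against 9.19% of all genes in that fit. Among 47 genes of mitophagy, autophagy and the lysosome the hexosaminidase *Hexa* (0.43 ± 0.06) was the only call, and 1 was called lower without DOX replicate 1. In 17 clock genes *Ciart* (0.87 ± 0.06), *Nfil3* (0.62 ± 0.07) and *Dbp* (0.47 ± 0.08) were called higher, against 5.3% of all genes, and 2 members were called lower without DOX replicate 1. With the length and GC correction *Dbp* had a log2 fold change of 0.45 and missed the threshold (adjusted p = 0.0667). No gene of the Hedgehog pathway was called among 9 tested, and 1 was called lower without DOX replicate 1. By annotation class, 12 of 284 lincRNAs rose and 22 fell, and of 188 unconfirmed (TEC) transcripts 1 rose and 10 fell. Over all genes 5.3% were called higher and 7.22% lower. The lincRNA counts lay near those shares and the TEC counts below them.

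Against the later time, 1155 of the 1658 genes called at 3 days (69.7%) were called in the same direction at 6 days, when 10% of all genes were called higher and 11.6% lower. For 322 of the 1658 (19.4%) the DOX effect differed between the times by a test of the interaction, against 17% of all tested genes. A threshold of 1.2 on the difference left 54 of them, and a fit with the replicate number as a block 179. The 6 with the smallest interaction p all changed more at 6 days, namely *Ppbp* (a further -1.54 ± 0.11), *Sprr1a* (-1.49 ± 0.13), *Id3* (-1.06 ± 0.13), *Id2* (-1.07 ± 0.13), *Sulf2* (1.13 ± 0.15) and *Tap1* (0.83 ± 0.10).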

How the data were processed

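mIMCD3 cells were sampled in 4 cultures for each of DOX and DMSO at 3 and 6 days. The authors sequenced polyadenylated RNA in directional libraries, quantified it with Salmon on GRCm38.p6, and deposited estimated counts per gene and a TPM table. Whether counting used strand is not given in the sources used here. The TPM table lacked 1039 of the 54393 genes.

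Estimated counts were rounded and fitted over all 16 libraries with edgeR 4.0.16 (R 4.3.3), with TMM scaling, robust quasi-likelihood dispersion and glmTreat at a fold change of 1.2. Genes with an adjusted p (Benjamini-Hochberg over the 13234 tested genes) under 0.05 are said to be called, to rise or to fall. SE is the log2 fold change divided by the root of the F statistic. CPM values are TMM-scaled, except for the filter and the summed marker levels, which were scaled to library totals only. Transcript length is that of the longest GENCODE transcript, and the length and GC correction used natural splines with 5 degrees of freedom each. Promoters are from RefSeq. At 16933343 to 23960860 counts a library, low genes have wide counting error, and 3 counts were taken as the floor.

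Named genes were the 12 largest non-overlapping protein-coding rises and falls with a mean of at least 5 CPM that the paper does not discuss, up to 4 called members of each list and direction with the smallest p, all members of lists with at most 8 tested, and the 6 smallest interaction p-values. *Atf4*, *Chac1*, *Cdh1* and the genes of the closing observations were chosen after their values were seen. The comparison and the gene lists were chosen with earlier results of these data known. The requirement that a call hold in 3 fits was added after the data were seen. Alternatives used limma 3.58.1 on log2(TPM + 1) and DESeq2 1.42.0, other filters and scalings, and each library left out in turn. The scripts were tested on simulated data. Replicates are labelled as separate samples, and nothing says how separate the cultures were, so the spread may be technical. Some genes that the rule names are not reported here.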

Additional observations from a re-analysis of the deposited data

Results flagged for a closer look

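Among 478 groups of 4 libraries looked at, 26 held a library far from the other 3 by Dixon's test, where chance gives about 1 group in 20. The TMM factor of DOX replicate 1 was 1.002 against at most 0.955 in the other DOX libraries. DMSO replicate 1 stood apart for *Avil* (0.857 CPM, next 0.572 CPM), *Fzd5* (30 CPM, next 28.4 CPM), *Plat* (279 CPM, next 248 CPM) and *Sim1* (29.9 CPM, next 28.2 CPM). DMSO replicate 2 stood apart for *Irx3* (30.1 CPM, next 35 CPM). DMSO replicate 3 stood apart for *Hmgcs1* (106 CPM, next 96.5 CPM). DMSO replicate 4 stood apart for *Gclc* (125 CPM, next 113 CPM) and *Klf15* (0.738 CPM, next 1.34 CPM). DOX replicate 1 stood apart for *Bmp3* (7.81 CPM, next 6.72 CPM), *Cgn* (167 CPM, next 134 CPM), *Dag1* (122 CPM, next 90.6 CPM), *Erbb2* (60.4 CPM, next 48.5 CPM), *Erbb3* (78.4 CPM, next 66.5 CPM), *Gas5* (928 CPM, next 1120 CPM), *Gnl3* (121 CPM, next 144 CPM), *Lrig1* (40.2 CPM, next 32.2 CPM), *Met* (173 CPM, next 134 CPM), *Mtrf1* (3.51 CPM, next 4.5 CPM), *Npnt* (85.6 CPM, next 62.7 CPM) and *Wnk4* (13.2 CPM, next 11.4 CPM). DOX replicate 2 stood apart for *Ccl28* (0.199 CPM, next 0.551 CPM) and *Cys1* (15.8 CPM, next 18 CPM). DOX replicate 3 stood apart for *Acox2* (4.88 CPM, next 5.41 CPM) and *Myc* (132 CPM, next 142 CPM). DOX replicate 4 stood apart for *Arrdc4* (5.9 CPM, next 4.45 CPM).

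The transcript length slope difference, DOX minus DMSO, differed between 3 and 6 days by -0.106 (exact p = 0.031). Of the 230 named genes only the 220 called at 3 days were looked at for a difference between the times. For 60 of the 220 the DOX effect at 6 days differed from that at 3 days by edgeR's interaction test, against 19.4% of all genes called at 3 days. The 6 genes named for the smallest interaction p are among the 60 by that choice. The values that follow are the log2 fold change at 6 days minus that at 3 days. The difference lay above 0 for *Acox2* (1.37), *Akna* (0.70), *Atf6* (0.45), *Avil* (1.32), *B4galnt2* (0.73), *C3* (1.24), *Calr* (0.27), *Cdsn* (0.61), *Ddr2* (1.79), *Eprs* (0.25), *Gclc* (0.36), *Hexa* (0.51), *Hrk* (1.29), *Hspa1b* (0.57) and *Ikbke* (0.31). It was also above 0 for *Klf15* (1.67), *Lcn2* (0.34), *Pdia6* (0.24), *Ppp1r15a* (0.29), *Slc1a4* (0.45), *Slc1a5* (0.66), *Slc6a9* (0.49), *Sulf2* (1.13), *Tap1* (0.83), *Wnk4* (0.45), *Zeb2* (0.67), *mt-Co1* (0.55), *mt-Nd4* (0.66) and *mt-Nd4l* (0.79). The difference lay below 0 for *Arrdc3* (-0.41), *Chd9* (-0.67), *Cryab* (-0.48), *Cxcl1* (-0.59), *Cxcl5* (-0.80), *Dusp1* (-0.50), *Dusp10* (-0.50), *E2f8* (-0.52), *Egln3* (-0.52), *Gsdma* (-1.32), *Gsta1* (-0.71), *Id2* (-1.07), *Id3* (-1.06), *Id4* (-1.43) and *Jun* (-0.42). It was also below 0 for *Krt19* (-0.57), *Krt20* (-0.51), *Krt4* (-1.18), *Krt8* (-0.28), *Mki67* (-0.44), *Mrto4* (-0.37), *Plat* (-0.44), *Plxna2* (-0.43), *Ppbp* (-1.54), *Psca* (-1.04), *Psph* (-0.38), *Rrm2* (-0.73), *Sfn* (-0.49), *Sprr1a* (-1.49), *St3gal1* (-0.30) and *Txnip* (-1.76).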

How the results depend on the processing

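The count of called genes (1658, with 702 higher and 956 lower) lay between 1366 and 2295 when each library was left out in turn, with 560 to 1079 higher and 803 to 1216 lower. The highest counts came without DOX replicate 1. It was 5982 (3047 higher, 2935 lower) without the fold-change threshold, 1019 (413 and 606) with DESeq2, 701 (85 and 616) with limma on log2(TPM + 1) and 574 (304 and 270) after centring that scale on each library's median, and the cause of these differences was not tested. RLE scaling, other filters, the 8 libraries alone, a fit without robust estimation and the length and GC correction gave 1491 to 1672 calls. The length slope difference stayed below 0 in every setting run, from -0.128 to -0.0236, and from -0.123 to -0.0804 with each library left out. It passed its test (-0.123, exact p = 0.0286) only without DOX replicate 1, the 1 DOX library among the DMSO slopes, so this p was fixed in advance. Its difference from 6 days was -0.135 without that library (exact permutation p = 0.00245), and the same choice of library lies behind that p.

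The labels do not say whether equal replicate numbers mark a shared plate or day. Deviations from the group mean of same-numbered DOX and DMSO libraries of 3 days correlated at -0.175 to -0.0245, which cannot settle it. With the replicate block 1472 genes were called (600 higher, 872 lower), and 1467 with the block and the length and GC correction. The block lowered the 322 genes whose effect differed between the times to 179, and a threshold of 1.2 on that difference left 54. The slope difference under pairing was -0.0932 (exact sign-flip p = 0.25).

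Counts of several groups rested on single libraries. Translation factors gave 3 to 14 rises with each library left out, endoplasmic reticulum genes 3 falls without DMSO replicate 3 or DOX replicate 2, and Notch genes 3 without DMSO replicate 4 or DOX replicate 3. Of the basement membrane genes 16 fell without DOX replicate 1, of the cyclic AMP genes 6 without DOX replicate 2, and of the TGF-β and BMP genes 5 without DMSO replicate 1. Depth limits *Ccnd2*, *Dll4*, *Hrk*, *Mlxipl*, *C1ra* and *Ccl28*, which had averages under 2 CPM in both groups. On the centred log2(TPM + 1) scale *Dll4*, which had -1.39 in the report, lay at 0.0209 and changed sign. The cause was not tested.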

Other observations

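Of 6 genes picked from families known from cleavage-stage mouse embryos, 5 were called lower. They were picked after their values were seen, carry no test as a set, and belong to families of near-identical copies, so the assignment of their reads is uncertain. *Zscan4f* read 3.74, 3.01, 2.06 and 2.87 CPM with DMSO and 1.15, 0.498, 0.488 and 0.109 CPM with DOX (log2 fold change -2.34 ± 0.45, edgeR adjusted p = 0.00166). *Usp17le* (-2.77 ± 0.56), *Gm20767* (-1.93 ± 0.37), *Gm5662* (-1.77 ± 0.44) and *Gm4027* (-1.25 ± 0.36) were also called lower, with no overlap between the groups. *Zscan4c* had a log2 fold change of -1.44 ± 0.57 and did not pass the test (adjusted p = 0.144). All 6 were called lower at 6 days.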
